A study of Homo sapiens with 8 samples.

Results

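The genes described here are 10 that act on adriamycin (ADR, doxorubicin) inside a cell: the efflux pumps ABCB1, ABCC1, ABCC2, ABCC3 and ABCG2, and the carbonyl reductases CBR1, CBR3, AKR1C1, AKR1C3 and AKR1B10. They were chosen by name out of 20296 genes with a usable probe, with earlier results of these data known. Each was followed on all 8 arrays through its probe with the highest mean level. ADR is an anthracycline that poisons topoisomerase II and breaks DNA. ATP-driven pumps of the ABC family carry it or its conjugates out through the plasma membrane, and P-glycoprotein, the product of ABCB1, is the textbook cause of anthracycline resistance. Inside the cell, carbonyl and aldo-keto reductases turn the ketone of its side chain into an alcohol, giving doxorubicinol, which kills tumour cells less well and is linked to the heart toxicity of the drug.

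RNA came from MCF10A, a non-transformed line of human mammary epithelial cells, in p53+/+ and p53−/− form. Cells were left untreated and collected at 0 h, or were given ADR for 2 h and collected at 12, 24 or 48 h, with 1 array for each genotype and time. All treated cells received the same dose, which the labels give as 0.5 µg/ml and the published methods give as higher. The sources used here do not say how many clones the p53−/− cells represent, and they describe no replicate cultures.

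Levels below are log2 of the processed signal of a probe relative to the 75th percentile of its own array, so that 0 is the level of that percentile and 1 is a doubling of it. They compare 1 probe between arrays, never one gene with another, and only the marker lists are given as sums over probes. A probe is called well above background where the scanner software found its spots brighter than their surroundings. The array signal at the 75th percentile ranged from 661 to 1199, between 49.8% and 62.9% of probes were well above background, and no spot was saturated. On the p53+/+ 48 h array 0 of 10 spike-in controls were well above background, against 6 of 10 on each other array. All 8 arrays shared 1 slide, with each genotype in a column of its own, so that position and genotype cannot be told apart.

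The array labelled p53+/+ 0 h did not read like the treated p53+/+ arrays. CDKN1A, the p21 inhibitor of cyclin-dependent kinases, lay at −1.14 on the array labelled p53+/+ 0 h. It lay at 2.54, 2.63 and 2.70 on the treated p53+/+ arrays. In p53−/− cells it lay at −2.97 at 0 h, below the array labelled p53+/+ 0 h, and at −0.96, −0.64 and −0.48 after ADR. MDM2, which encodes the ligase that degrades p53, lay at −1.66 on that array, at 1.29, 1.49 and 1.76 in treated p53+/+ cells and between −2.04 and −1.33 in p53−/− cells. Over all probes, the median absolute log2 difference of that array was 0.233 to p53−/− at 12 h and 0.297 to p53−/− at 0 h, against 0.444 to 0.584 to the treated p53+/+ arrays. That array is also the only untreated p53+/+ array, so a wrong label and the lack of ADR cannot be told apart here. Changes in p53+/+ cells are therefore given from the array labelled p53+/+ 0 h and again from the p53−/− 0 h array, and the test between genotypes uses the 6 treated arrays alone.

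**Figure D1:**
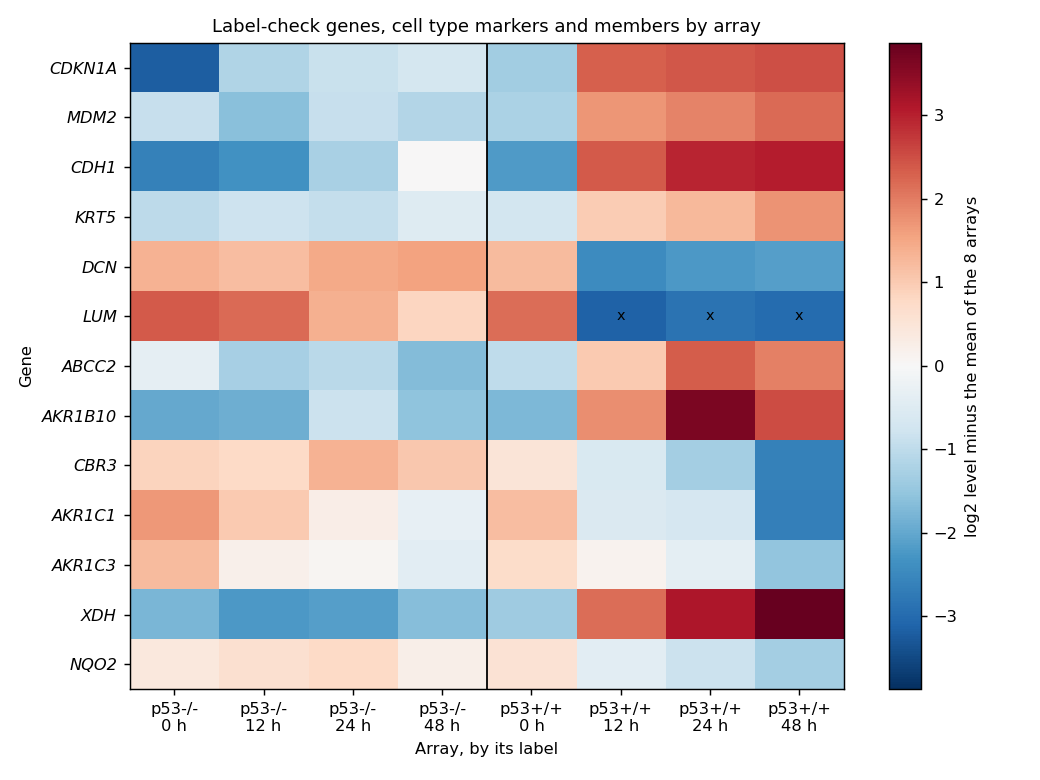
Log2 level of each gene (rows) on each array (columns, by label) minus the gene's mean over the 8 arrays, with x where a probe was not well above background. In the column labelled p53+/+ 0 h, CDKN1A, MDM2, DCN and AKR1B10 take the colour of the p53−/− columns to its left rather than that of the 3 treated p53+/+ columns to its right.

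Of the 10 genes, 8 were well above background on all 8 arrays. ABCB1 and ABCG2 were not, and 9 of 10 passed the filter that asked for 1 such array. After ADR, ABCC2 and AKR1B10 were the members that were higher in p53+/+ than in p53−/− cells past the threshold, and CBR3 was the member that was lower. AKR1C1 was lower as well without overlap of the treated arrays, but short of the threshold in the main fit. It passed with time point as a block (limma adjusted p = 0.0396) and with another background correction (limma adjusted p = 0.0493). Treated arrays of p53+/+ lay above those of p53−/− without overlap for 25.1% of probes (ABCC2 and AKR1B10 among the members) and below them for 16.4% (CBR3 and AKR1C1). The 3 members past the threshold, of the 9 that were tested, compare with 18.0% of the 28947 probes tested (10.6% higher and 7.40% lower in p53+/+). Because each genotype has 1 array per time, the 3 times stood in for replicates in this limma fit, and its p-values set the genotype difference against movement over time, not against the spread between cultures. In RNA of whole cultures, fewer cells of a kind and less RNA per cell cannot be told apart.

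**Figure D2:**
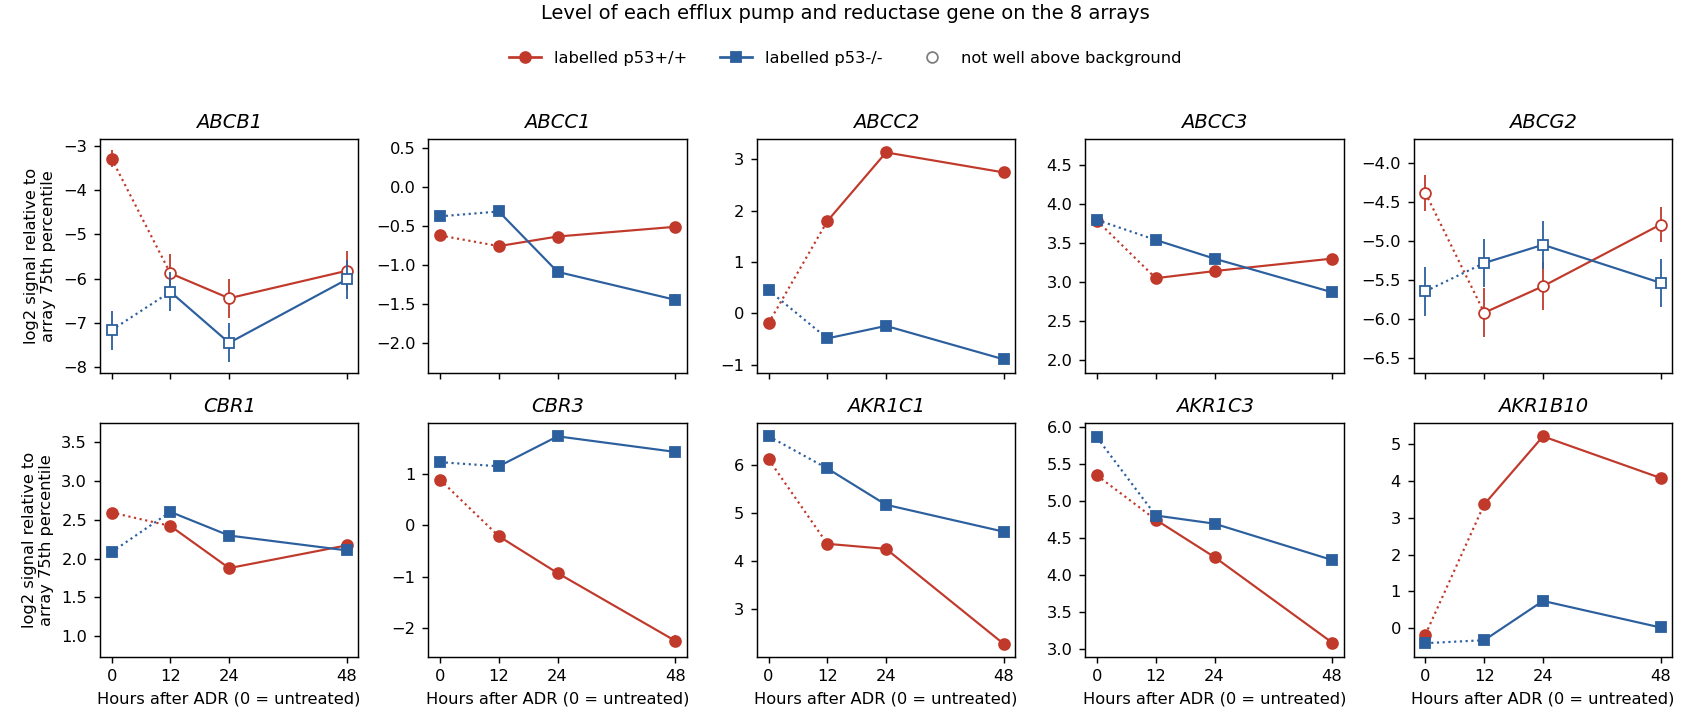
Level of each of the 10 genes (log2 signal relative to the array's 75th percentile) against hours after ADR, with p53+/+ labels as red circles and p53−/− labels as blue squares. Open symbols were not well above background, dotted lines join the 0 h arrays, and vertical bars are the technical SD between spots, which is smaller than the symbol for bright probes. ABCC2 and AKR1B10 part upwards and CBR3 downwards in treated p53+/+ cells, whereas AKR1C1 and AKR1C3 decline in both genotypes.

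Among the pumps, ABCC2 (NM_000392), also called MRP2, which exports glutathione and glucuronide conjugates, showed the widest gap between the genotypes. From −0.20 on the labelled p53+/+ 0 h array it stood at 1.79, 3.13 and 2.74 in p53+/+ cells at 12, 24 and 48 h. In p53−/− cells it lay at 0.45 before ADR and at −0.49, −0.25 and −0.90 afterwards. Thus the lowest treated p53+/+ level was above the highest treated p53−/− level, and the untreated arrays sat near the p53−/− range. The rise in p53+/+ cells was 3.97-fold, 10.05-fold and 7.67-fold from the array labelled p53+/+ 0 h. From the p53−/− 0 h array it was 2.54-fold, 6.42-fold and 4.90-fold. In p53−/− cells the log2 change from 0 h was −0.94, −0.70 and −1.35, with a technical SD of 0.08. The genotypes differed by 2.28, 3.38 and 3.64 on the log2 scale at the 3 times, and by 3.1 (8.58-fold) in the fit (SE 0.38, limma adjusted p = 0.00383, higher at 3 of 3 times). Without the 24 h arrays the adjusted p was 0.0706, the highest of the alternatives, which began at 0.000568.

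ABCC1 (NM_004996), or MRP1, a broad exporter that takes anthracyclines together with glutathione, moved little in p53+/+ cells. It read −0.62 on the labelled p53+/+ 0 h array, then −0.75, −0.63 and −0.51. The p53−/− readings began at −0.37 and went on at −0.31, −1.09 and −1.44. The latest p53−/− level was the lowest of the 8, with a change of −1.13 between 12 and 48 h (technical SD 0.09). The treated groups overlapped, and the genotype difference of 0.32 (SE 0.31, limma adjusted p = 0.523) did not pass the threshold.

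ABCC3 (NM_003786), or MRP3, which exports glucuronides across the basolateral membrane, was slightly lower after ADR in both genotypes on its brighter probe. In p53+/+ cells it went from 3.79 on the labelled 0 h array to 3.05, 3.14 and 3.30, and in p53−/− cells from 3.80 to 3.54, 3.30 and 2.87. No change reached 2-fold. A second probe, designed to another transcript of the gene (NM_001144070), ran from 2.18 to 2.52 over the 8 arrays, and its mean change from 0 h was 0.08 in p53+/+ and 0.25 in p53−/− cells, where that of the brighter probe was −0.62 and −0.56. Both probes overlapped between treated groups, and the genotype difference was −0.07 (SE 0.23, limma adjusted p = 0.861) on the brighter probe and −0.13 (adjusted p = 0.660) on the second.

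For P-glycoprotein itself, the arrays gave almost no signal. The brighter ABCB1 probe (NM_000927), a single spot, was well above background on 1 array, the one labelled p53+/+ 0 h, where it lay at −3.28. On the other 7 arrays it lay between −7.46 and −5.82, not well above background. A second ABCB1 probe for the same transcript, printed in 10 spots, was well above background on no array, at −6.77 on the array labelled p53+/+ 0 h and −7.15 to −5.98 elsewhere. From the lone bright spot the bounds were at least 2.81-fold, 2.34-fold and 2.54-fold lower at 12, 24 and 48 h, but the probe passed the filter only through that spot, and the 10-spot probe showed a mean log2 change of 0.435 below background. From the p53−/− 0 h array the mean difference was 1.12 with both sides below background, so no fold is given. ABCG2 (NM_004827), the breast cancer resistance protein, was well above background on 0 of 8 arrays, so neither a change nor a bound is given.

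Of the reductases, AKR1B10 (NM_020299), an aldo-keto reductase that acts on retinal and on many aldehydes and ketones, had the largest rise of the 10 genes. From −0.17 on the labelled p53+/+ 0 h array it stood at 3.36, 5.21 and 4.08 once p53+/+ cells had received ADR. The p53−/− cells began at −0.41 and gave −0.33, 0.74 and 0.02. All 3 treated p53+/+ arrays stood apart from the other 5. The rise was 11.6-fold, 41.7-fold and 19.1-fold from the labelled p53+/+ 0 h array and 13.6-fold, 49.0-fold and 22.4-fold from the p53−/− 0 h array. In p53−/− cells the change passed 2-fold at 24 h (1.15 on the log2 scale, technical SD 0.11) but not at 12 h (0.08) or 48 h (0.43). The genotypes differed by 4.07 (SE 0.51, limma adjusted p = 0.00419, higher at 3 of 3 times). A second probe, in 2 spots, followed the first to within 0.28 on every array and gave 4.05 (limma adjusted p = 0.00284).

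CBR3 (NM_001236), a cytosolic carbonyl reductase of the short-chain dehydrogenase family, went the other way. Its p53+/+ level was 0.89 on the labelled 0 h array and −0.21, −0.93 and −2.25 at 12, 24 and 48 h. In p53−/− cells CBR3 began at 1.23 and stood at 1.15, 1.73 and 1.43. Each treated p53+/+ value was below every other value, and each time was lower than the one before. The fall was 2.14-fold, 3.52-fold and 8.77-fold from the array labelled p53+/+ 0 h and 2.71-fold, 4.46-fold and 11.1-fold from the p53−/− 0 h array. From 12 to 48 h alone, which needs no 0 h array, it was 4.10-fold. In the fit CBR3 was lower in p53+/+ cells by 2.57 (log2 difference −2.57, SE 0.51, limma adjusted p = 0.0186, lower at 3 of 3 times). Without the 24 h arrays the adjusted p was 0.188, and over all alternatives it ran from 0.00302 to 0.188.

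CBR1 (NM_001757), the main reductase that makes doxorubicinol in most tissues and the close relative of CBR3, changed little. From 2.59 on the labelled p53+/+ 0 h array it stood at 2.42, 1.88 and 2.17, against 2.08 at 0 h and 2.60, 2.29 and 2.10 in p53−/− cells. The treated groups overlapped, and the genotype difference was −0.18 (SE 0.23, limma adjusted p = 0.635). A second CBR1 probe, for NM_001286789, was well above background on 1 array and gave no usable level.

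AKR1C1 (NM_001353) and AKR1C3 (NM_003739), neighbouring aldo-keto reductases that also reduce progesterone and androgen precursors, declined after ADR with and without p53. AKR1C1 began at 6.12 on the labelled p53+/+ 0 h array and stood at 4.36, 4.26 and 2.28 in treated p53+/+ cells. Its p53−/− level went from 6.60 to 5.93, 5.18 and 4.62. The treated p53+/+ arrays lay below all treated p53−/− arrays, yet the difference of −1.61 (SE 0.62, limma adjusted p = 0.124) did not pass the threshold. It did so with time point as a block, which pairs the genotypes at each time (SE 0.32, limma adjusted p = 0.0396), and with another background correction, normexp (adjusted p = 0.0493), and over all alternatives the adjusted p ran from 0.0396 to 0.299. In p53+/+ cells the fall from the labelled 0 h array was 3.39-fold, 3.65-fold and 14.3-fold, and in p53−/− cells it was 1.59-fold, 2.69-fold and 3.96-fold from 0 h. A second AKR1C1 probe read 1.07 to 1.29 lower on each array and followed the same course, with a genotype difference of −1.63 (limma adjusted p = 0.126).

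AKR1C3 went from 5.34 on the labelled p53+/+ 0 h array to 4.74, 4.24 and 3.08, and from 5.86 to 4.80, 4.69 and 4.20 in p53−/− cells. Its treated ranges overlapped (difference −0.54, SE 0.44, limma adjusted p = 0.433). It was the only member that fell at least 2-fold at all 3 times in p53−/− cells, by 2.08-fold, 2.24-fold and 3.16-fold. In p53+/+ cells the fall from the labelled 0 h array was 1.52-fold at 12 h, short of the rule, and 4.79-fold at 48 h. From the p53−/− 0 h array it was 2.16-fold, 3.07-fold and 6.84-fold. Both AKR1C genes were lower at 48 h than at 12 h in p53+/+ cells, with changes of −2.08 and −1.66.

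The upstream sequences of these 2 genes are shown because the genes moved together (Pearson r = 0.947 over the 8 arrays, a description of levels that share arrays and scaling) and lie in 1 cluster of near copies. RefSeq on GRCh38.p14 gives 1 start for AKR1C1 and 2 for AKR1C3 in the table used, and each line is the 250 bases before the start on the plus strand. Capitals mark a 12-base run common to all 3, chosen after the sequences were compared.
AKR1C1, chr10:4963165-4963414: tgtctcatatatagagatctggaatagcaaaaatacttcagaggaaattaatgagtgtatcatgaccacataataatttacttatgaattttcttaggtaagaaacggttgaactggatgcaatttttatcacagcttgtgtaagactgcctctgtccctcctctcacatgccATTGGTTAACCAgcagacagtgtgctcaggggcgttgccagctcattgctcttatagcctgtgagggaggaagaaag
AKR1C3, chr10:5048531-5048780: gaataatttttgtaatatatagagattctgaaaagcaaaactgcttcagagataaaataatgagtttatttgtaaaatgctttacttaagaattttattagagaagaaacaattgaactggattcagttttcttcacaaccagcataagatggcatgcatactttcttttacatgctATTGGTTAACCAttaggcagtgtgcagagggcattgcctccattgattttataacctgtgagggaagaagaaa
AKR1C3, chr10:5094164-5094413: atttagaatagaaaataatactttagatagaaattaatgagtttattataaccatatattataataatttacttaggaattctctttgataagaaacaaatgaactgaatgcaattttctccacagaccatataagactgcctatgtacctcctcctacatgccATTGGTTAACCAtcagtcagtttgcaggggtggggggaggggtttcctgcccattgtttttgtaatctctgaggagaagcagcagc
The run ATTGGTTAACCA, sought on both strands, was in 5 of 35116 promoters of the same length (0.0142%), those of AKR1C1, AKR1C2, AKR1C3 and PPFIA2. Aligned end to end, the AKR1C1 promoter was identical to the AKR1C3 promoters at 71.4% and 69.5% of columns, and to a promoter of AKR1C2 at 96.5%. AKR1C2 itself had no matched probe and was not analysed here. The sequences of the array probes were not used here, so how far an AKR1C1 or AKR1C3 probe also binds RNA of the other family members was not tested.

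Motifs of other factors were also sought on both strands in the 12 promoters the table holds for 6 members, ABCB1, ABCC2, ABCG2, CBR1, AKR1C1 and AKR1C3. The core of the antioxidant response element, TGACNNNGC, which NRF2 binds, was in 1 of 12, that of CBR1, and in 10.9% of all promoters. The core of the xenobiotic response element, GCGTG, which the aryl hydrocarbon receptor binds, was in 5 of 12, of ABCB1, ABCG2 and CBR1, and in 32.2% of all. Some of the ABCG2 promoters overlap in position and share a GCGTG site, so these 5 are not all separate sites. The p53 half-site was in 0 of 12 and in 5.57% of all. The overlap between matches of different motifs was not examined, and promoters of ABCC1, ABCC3, CBR3 and AKR1B10 are named only.

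**Figure D3:**
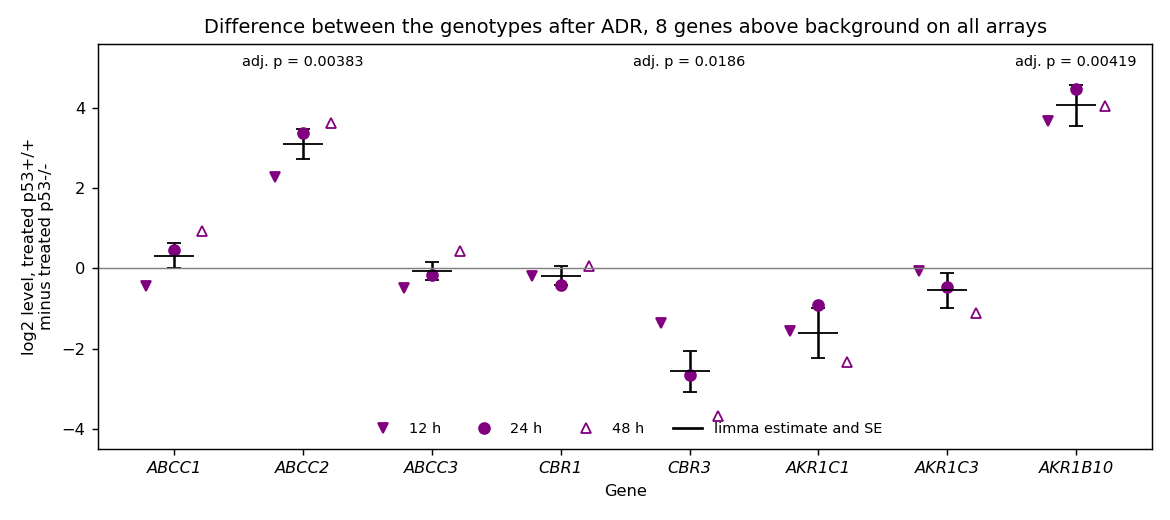
Log2 level in treated p53+/+ minus treated p53−/− cells, at 12, 24 and 48 h (symbols) for the 8 genes that every array detected, with the limma estimate and its SE (black). ABCC2 and AKR1B10 lie above 0 at all 3 times. CBR3, AKR1C1 and AKR1C3 lie below 0 at all 3 times, AKR1C3 only slightly at 12 h. The adjusted p is printed for those past the threshold.

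Markers of cell types, the mammary epithelial type of MCF10A itself among them, differed between the genotypes alongside these genes. Of 8 basal mammary epithelial markers, 6 were higher in treated p53+/+ cells (KRT5, KRT14, KRT17, CDH1, ITGA6 and ITGB4, against 10.6% of all probes), and their summed level over all 8 was 7.50 to 8.12 there, against 5.66 to 6.15 in treated p53−/− cells, 6.38 in p53−/− cells at 0 h and 6.39 on the array labelled p53+/+ 0 h. TP63 was well above background on 3 of the 6 treated arrays. Of 6 fibroblast markers 5 passed the filter and 1, DCN, was lower in treated p53+/+ cells by a call that is used (against 7.40% of all probes). The summed level of the fibroblast markers was 2.11 to 2.39 in treated p53+/+ cells, against 5.71 to 6.07, 5.87 and 5.77 in the same order. That sum is almost DCN alone, which lay at 2.09 to 2.37 in treated p53+/+ cells and at 5.70 to 6.07 in treated p53−/− cells. COL1A1, PDGFRB and LUM were also called lower. Like the endothelial PECAM1, they passed the filter only through arrays on which they were high, so these calls are not used. COL1A2 was well above background on no array, while DCN differed by −3.67 (limma adjusted p = 0.000311). Of 6 luminal markers 5 passed the filter and 1, GATA3, was higher (against 10.6% of all probes), with PGR well above background on no array. ESR1, FOXA1, KRT18 and ELF5 did not pass the threshold. Of 3 leukocyte markers that passed the filter, 1, CD14, was lower (against 7.40% of all probes). PTPRC lay at −4.27 to −3.68 on all arrays, and CD3E was above background on 1. Of 3 endothelial markers, 1, PECAM1, was lower (against 7.40%), but that call is not used because of how it passed the filter. VWF and CDH5 did not pass the threshold. The part of these differences in the results for ABCC2, AKR1B10 and CBR3 was not tested.

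Changes from 0 h were also counted by size, since 1 array per condition allows no test. In p53+/+ cells, 2 of the 9 members that passed the filter rose at least 2-fold at all 3 times from the labelled 0 h array (ABCC2 and AKR1B10, against 7.94% of probes), and CBR3 and AKR1C1 fell (against 5.78%). ABCB1 met the same rule only from its lone bright spot and is not counted as a fall. Counted from p53−/− at 0 h instead, rises were again ABCC2 and AKR1B10 (7.95% of probes), and the falls were CBR3, AKR1C1 and AKR1C3 (5.66%). In p53−/− cells no member rose (2.64% of probes) and AKR1C3 fell (1.84%). Between 12 and 48 h, 3 members fell in p53+/+ cells, CBR3, AKR1C1 and AKR1C3 (7.00% of probes), and 2 in p53−/− cells, ABCC1 and AKR1C1 (3.31%), while 0 rose in either (8.41% and 11.1% of probes). The comparisons with 0 h share that array over the 3 times, and the p53−/− 0 h array serves both genotypes where it is the baseline.

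**Figure D4:**
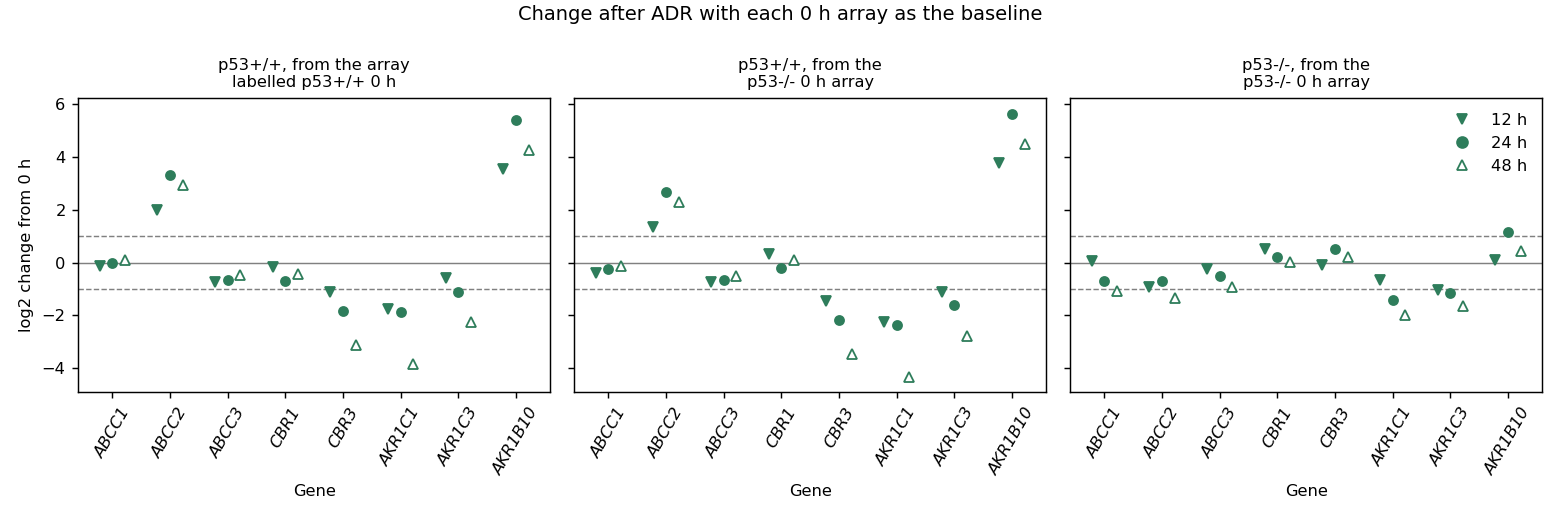
Log2 change from 0 h at 12, 24 and 48 h for the same 8 genes, with p53+/+ cells set against the array labelled p53+/+ 0 h (left) and against the p53−/− 0 h array (middle), and p53−/− cells against their own (right). Bars are the technical SD between spots, mostly smaller than the symbols, and dashed lines mark 2-fold. AKR1B10 and ABCC2 lie above the upper line and CBR3 and AKR1C1 below the lower line at all 3 times in both p53+/+ panels.

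Whether the change from 0 h itself differed between genotypes was asked in a fit of all 8 arrays with a genotype by treatment term. None of the 9 members passed (0 past the threshold, against 1.69% of probes). An unadjusted limma p under 0.05 was reached by 3 members, ABCC2, AKR1B10 and ABCB1, against 4949 of 28947 probes. ABCB1 was tested only because of its lone bright spot. Estimates were 3.75 for ABCC2 (SE 0.75, limma adjusted p = 0.0688), 3.84 for AKR1B10 (SE 1.02, adjusted p = 0.126) and −2.22 for CBR3 (SE 1.01, adjusted p = 0.328). For AKR1C1 the estimate was −1.13 (SE 1.25, limma adjusted p = 0.696), and for ABCB1, which rests on the lone spot, −3.35 (SE 0.81, adjusted p = 0.105). This fit depends on the array labelled p53+/+ 0 h, whose CDKN1A and MDM2 values are given above.

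Other drug transporters, 14 genes chosen for comparison of which 12 passed the filter, put ABCA3 and ABCB5 past the threshold as higher in treated p53+/+ cells, but neither call is used here because of how each passed the filter. ABCA3, a lipid transporter of intracellular vesicles, was at −4.96, −3.44 and −2.04 at 12, 24 and 48 h, well above background at the last 2 times, and was not well above background on any other array, so that it passed the filter only through the arrays where it was high. ABCB5 was well above background on no treated array and passed the filter through 1 spot on the array labelled p53+/+ 0 h. The median genotype difference of the list was −0.11, against 0.09 over all probes tested. SLC22A16, a carrier known for uptake of ADR, was not well above background on any p53+/+ array and reached −4.88 and −3.30 in p53−/− cells at 24 and 48 h. ABCB8, a mitochondrial transporter on a single spot, went in p53−/− cells from −1.38 to −0.25, −0.29 and −0.08. A second ABCB8 probe, also well above background on all 8 arrays, was flat there (−3.02, then −3.09, −2.90 and −3.01) and higher rather than lower in treated p53+/+ cells (−2.74, −2.72 and −2.57), so the probes disagree.

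Of 20 other quinone and carbonyl enzymes, 18 had a probe, and 2 were higher and 2 lower in treated p53+/+ cells (against 10.6% and 7.40% of all probes), with a median difference of −0.19. These 4 of 18 are near the 18.0% of all probes called. XDH, xanthine oxidoreductase, which can reduce the quinone of ADR, went from −0.33 on the labelled p53+/+ 0 h array to 3.23, 4.19 and 4.93, and stayed between −1.16 and −0.60 in p53−/− cells (difference 5.07, SE 0.44, limma adjusted p = 0.00121). GPX1, a peroxide-removing selenoenzyme, was higher by 0.89 (limma adjusted p = 0.0327). HSD11B1, which reduces cortisone and other carbonyls, fell to between −1.70 and −1.59 in treated p53+/+ cells from 0.70 on the labelled 0 h array, with 0.67 to 1.35 in treated p53−/− cells (difference −2.58, limma adjusted p = 0.00141). NQO2, a quinone reductase, was lower by 1.39 (log2 difference −1.39, limma adjusted p = 0.0211). AKR1C4, the liver member of the AKR1C family, went from −1.85 on the labelled p53+/+ 0 h array to −3.24, −4.06 and −4.64, the last not well above background, and went from −0.97 to −2.17, −2.62 and −3.31 in p53−/− cells, so that it fell at least 2-fold at all 3 times in both (genotype difference −1.28, limma adjusted p = 0.0923). This probe is a single spot, and a second AKR1C4 probe, in 2 spots, was well above background on 0 of 8 arrays (−7.22 to −5.25). These 4 calls were also each lost under some alternative, the limma adjusted p running up to 0.0605 for XDH, 0.433 for GPX1, 0.0524 for HSD11B1 and 0.210 for NQO2. POR was not analysed here.

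NRF2 is the transcription factor that governs many of these reductases and the glutathione supply that MRP pumps use. Of 12 of its regulators and targets 11 passed the filter, the probe for NFE2L2 itself being well above background on no array. By limma 0 of 11 differed between the genotypes, against 18.0% of all probes, with a median difference of 0.24. KEAP1, 1 of 11, had an unadjusted limma p under 0.05, against 9850 of 28947 probes. SLC7A11, the cystine importer, fell in both genotypes, from 2.53 on the labelled p53+/+ 0 h array to 1.50, 0.41 and −0.66 and from 3.03 to 0.94, 0.24 and −1.30 in p53−/− cells. HMOX1 and GCLC also fell at least 2-fold at all 3 times in p53−/− cells. They went from 2.21 and 3.00 at 0 h to treated levels of at most 1.12 and 1.05. On the labelled p53+/+ 0 h array they were lower, at 1.09 and 1.36, with 0.88 to 1.87 and 0.75 to 1.07 in treated p53+/+ cells. The p53−/− falls of HMOX1 and GCLC thus rest on the p53−/− 0 h array. With SLC7A11, 3 of 11 fell at all 3 times in p53−/− cells, against 1.84% of probes. Of the nuclear receptors and related genes that control pumps, 8 in all with 7 matched, 6 passed the filter. CYP1B1 was lower by 1.01 (log2 difference −1.01, limma adjusted p = 0.0460, up to 0.309 over the alternatives). It was the single gene of 6 past the threshold, against 18.0% of all probes. CYP1A1 rose in p53−/− cells from −4.19 to −3.09, −2.18 and −2.42. It was 1 of 6 to rise at least 2-fold at all 3 times there, against 2.64% of probes. AHRR was not analysed here.

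Over the 8 arrays, each member was also set against 63 genes of these lists, to name those whose course was most alike. The highest Pearson r of ABCC2 was with MDM2 (0.957) and XDH (0.955), and that of AKR1B10 was with the same genes (0.967 and 0.956). CBR3 was most like NQO2 (0.966) and KEAP1 (0.929), and AKR1C1 was most like AKR1C3 (0.947) and NQO2 (0.869). GCLM was the gene most like ABCC3 (0.895) and the second most like AKR1C3 (0.892). For ABCC1 (ME1, 0.757) and CBR1 (TXNRD1, 0.682) the likeness was lower. All these values come from 8 points that share arrays and scaling and are descriptions only.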

How the data were processed

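The 8 samples are 1-colour Agilent arrays (SurePrint G3 Human GE), and their file headers name build hg19. The authors deposited scanner output (Feature Extraction 10.7.3.1, per the labels) whose processed signal is a background-corrected intensity on a linear scale, and a series table that holds the same numbers (503808 of 503808 values equal). Spots that the scanner software marked as outliers were left out. From the deposited intensity, the log2 value minus the log2 75th percentile of the array was averaged per probe (42391 probes). Limma 3.58.1 (R 4.3.3; lmFit and eBayes) was run on the 28947 probes detected well above background on 1 or more arrays (4 residual degrees of freedom), with a Benjamini-Hochberg threshold of 0.05. Transcript accessions named 27235 probes (64.2%) through RefSeq GRCh38.p14, so no hg19 coordinates are given. The technical SD came from 999 probes printed in 10 spots. A bound uses, per array, the lowest signal among probes well above background.

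Named were all 10 members, CDKN1A and MDM2, up to 4 genes of each other list past the threshold or changed 2-fold at all 3 times, AKR1C2 and AKR1C4, and the 2 genes most like each member. Values of certain listed genes are not reported here. Members and lists were chosen with earlier results of these data known. No gene list was given a set test. The fitting code was tested on simulated data. Alternatives were quantile, median or no scaling, normexp with an offset of 50, a signal floor, other filters, all spots, a gene's probes averaged, a 3-fold rule, the p53−/− 0 h baseline, time point as a block, and each treated time left out.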

Additional observations from a re-analysis of the deposited data

Results flagged for a closer look

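The changes of ABCC2 and CBR1 from 0 h had opposite signs in the 2 genotypes at all 3 treated times, although the CBR1 change in p53−/− cells was 0.52, 0.21 and 0.02, the last of them below its technical SD of 0.07. For ABCC2 the mean change from 0 h was 2.75 in p53+/+ and −0.99 in p53−/− cells, so that the p53+/+ change was higher by 3.75 on the log2 scale. For CBR1 it was −0.44 and 0.25, a difference of −0.69. With 1 array per condition, the difference at each time could not be tested, and in the fit of genotype by treatment neither passed the threshold (limma adjusted p = 0.0688 and 0.499). Both rest on the array labelled p53+/+ 0 h. From the p53−/− 0 h array, the CBR1 change in p53+/+ cells was 0.34, −0.21 and 0.09, with no common direction, and that of ABCC2 was 1.34, 2.68 and 2.29.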

How the results depend on the processing

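Precision is limited by 1 array per condition. ABCC2 and CBR3 kept their direction under every alternative and lost significance without the 24 h arrays (limma adjusted p = 0.0706 and 0.188), and AKR1B10 passed under all 13. Of probes past the threshold between genotypes (5201, 9850 at an unadjusted p under 0.05, 58.8% higher in p53+/+), there were 9393 with no scaling (14.5% higher), 9894 with normexp (73.3%), 12536 with no filter (78.4%) and 9478 with a signal floor (71.5%), and the median of the array gave 45.7% higher. Leaving out the 12, 24 or 48 h arrays gave 2670, 292 (70.9% higher) and 2571. Members past it were 5 with no scaling, adding ABCC3 and CBR1, and 1 without the 24 h arrays. They were 4 with normexp (adding AKR1C1, limma adjusted p = 0.0493), with the signal floor (adding ABCB1, 0.00585, with no treated array above background) and with time point as a block (adding AKR1C1, 0.0396), where the block pairs the genotypes at each time and left 4451 probes past the threshold. The median probe moved between −0.06 and 0.20 over the contrasts, and between −0.67 and 0.45 with no scaling. For the interaction (488 probes, 4949 unadjusted, 55.7% higher), no scaling gave 1296 (14.0%), normexp 1251 (66.4%), a signal floor 914, and time point as a block 60 (76.7%). Leaving out the 12, 24 or 48 h arrays gave 42 (78.6%), 0 and 0 probes by limma (4919, 3063 and 5274 unadjusted). Members past the interaction threshold went from 0 to 1 with no scaling (ABCB1) and with normexp, the floor or only probes well above background on all 8 arrays (ABCC2 in each). The genotype difference turned with no scaling for ABCB1 (−0.0561) and ABCC1 (−0.28), and for ABCC3 without the 12 h arrays (0.14). The interaction turned for ABCC3 with quantile normalization (0.0694) and without the 12 h arrays (0.15), for ABCC1 with no scaling (−0.24) and for AKR1C3 without the 48 h arrays (0.26). The mean p53+/+ change of ABCB1 turned to 1.12 from the p53−/− 0 h array. Members falling at all 3 times in p53−/− cells went from 1 to 0 with the median, no scaling or a 3-fold rule. From 12 to 48 h, an alternative added after seeing the data, falls in p53−/− cells went from 2 to 1 with normexp, and rises in p53+/+ cells from 0 to 1 (ABCG2) with no filter. The cause of each was not tested. The labels number no replicates across groups, so time point was the only pairing to be had.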
